A study of Bos taurus with 16 samples.

Results

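The bovine genes ATP8B1, FHDC1, MTCL1 and GPR62 were examined here site by site. They were chosen by their mean methylation, which was higher in MET_P than in CON_P, so all values of that contrast are given below as a description without a test. All cytosine positions that the deposited table places in these genes were taken, which gave 236 of 199395 sites. Of these, 34 lay in ATP8B1, 65 in FHDC1, 75 in MTCL1 and 62 in GPR62. The table came from reduced representation bisulfite sequencing (RRBS), in which the enzyme MspI cuts DNA at CCGG, short fragments are sequenced after bisulfite treatment, and the percentage of reads that kept a cytosine is taken as the methylation level of that position.

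The DNA came from endometrial cells, the lining of the uterus, which were taken with a cytobrush 4 to 8 h after artificial insemination from postpartum dairy cows. All cows were inseminated between days 50 and 64 postpartum. CON_P and CON_noP cows received the control diet and MET_P and MET_noP cows received it with rumen-protected methionine (RPM) from day 12 postpartum. The suffix P marks cows that resulted in pregnancy and noP those that resulted in no pregnancy, an outcome that was known only after sampling. Each group had 4 libraries, called here by the numbers S12 to S31 of the table. How many cows a library holds is not given in the sources used here, and the spread between libraries is therefore not known to be that between animals. The paper isolated DNA from more samples than there are libraries, and from more in the noP than in the P groups. The number of samples per library may thus differ between these groups. No read counts accompany the percentages, and the depth behind each value is unknown beyond the minimum count that the authors required. By group, the paper reports the most raw reads per replicate in MET_P and the fewest in CON_P. Positions with a value of zero had been left out, and the lowest value in the table is 1%. Mean methylation over all sites was 61.3% to 65.1% in the 16 libraries.

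Methionine is the precursor of S-adenosylmethionine, the methyl donor of the enzymes that methylate cytosines in CpG dinucleotides. Methylation of a CpG island at a promoter usually goes with a silent gene, whereas CpGs within gene bodies are often methylated in expressed genes. Cell types differ in methylation at many such regions, and a cytobrush sample can hold several cell types, mainly luminal epithelium and leukocytes. In such bulk DNA, another share of a cell type and another methylation level within a cell type cannot be told apart. ATP8B1 encodes a P4-type ATPase, a flippase that moves phospholipids from the outer to the inner leaflet of the plasma membrane, and its loss in humans causes familial intrahepatic cholestasis. FHDC1 (also called INF1) encodes a formin, a family of proteins that nucleate actin filaments, and this member also binds microtubules. MTCL1 encodes a protein that crosslinks and stabilizes microtubules and interacts with the polarity kinase PAR1 in epithelial cells. GPR62 encodes an orphan G protein-coupled receptor of the rhodopsin class.

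The sites were not spread evenly over the genes. Most sites of each gene lay in a dense cluster, its largest run of sites with no gap over 500 bases, and the 4 dense clusters together held 204 of the 236 sites. In ATP8B1 (ENSBTAG00000005738), 32 of 34 sites lay within 227 bases at chr24:56869217-56869443 (ARS-UCD1.2). In FHDC1 (ENSBTAG00000043963), 60 of 65 sites lay within 589 bases at chr17:4673246-4673834. In MTCL1 (ENSBTAG00000009459), 50 of 75 sites lay within 596 bases at chr24:41208686-41209281. In GPR62 (ENSBTAG00000013442), all 62 sites lay within 850 bases at chr22:48977581-48978430. The density was 14.1 sites per 100 bases in ATP8B1, 10.2 in FHDC1, 8.39 in MTCL1 and 7.29 in GPR62. The table marks these positions as lying in the gene and does not say whether they are exonic or intronic.

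All 4 dense clusters were intermediately methylated. Their group means ranged from 32.7% in GPR62 in CON_P to 70.1% in ATP8B1 in MET_P. In the noP libraries, which the choice of genes did not use, the mean level was 55.2% for ATP8B1, 52.7% for FHDC1, 48.4% for MTCL1 and 40.9% for GPR62. The remaining sites of the genes were mostly near either end of the scale, as described below.

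In ATP8B1, the mean of the dense cluster was 76.6%, 69.3%, 76.5% and 57.8% in the MET_P libraries S15, S19, S27 and S31. It was 40.9%, 50.9%, 28.5% and 61.2% in the CON_P libraries S14, S18, S26 and S30. The groups overlapped, since S31 lay below S30, and the other three MET_P libraries lay above every CON_P library. The group means were 70.1% ± 8.86 (SD, n = 4) and 45.4% ± 13.98 (SD, n = 4). In the noP groups, the values were 67.8%, 65.0%, 44.4% and 58.0% in the MET_noP libraries S13, S17, S25 and S29. They were 68.5%, 38.3%, 49.4% and 50.6% in the CON_noP libraries S12, S16, S24 and S28. The highest noP library was thus one of the control diet, and the lowest as well.

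In FHDC1, the MET_P libraries had 70.3%, 70.4%, 71.4% and 60.2%, in the same order of libraries. The CON_P libraries had 37.1%, 47.5%, 32.2% and 65.1%. Again S31 lay below S30, and the other MET_P libraries lay within about a point of each other. The means were 68.1% ± 5.28 (SD, n = 4) in MET_P, beside 45.5% ± 14.6 (SD, n = 4) in CON_P. The MET_noP libraries had 58.6%, 73.9%, 35.8% and 55.7%, and the CON_noP libraries had 59.5%, 34.1%, 52.4% and 51.1%. Library S17 had the highest value of all 16 and S25 the lowest of the MET libraries, although both belong to MET_noP.

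In MTCL1, the MET_P libraries had 62.1%, 62.6%, 67.6% and 60.7%, and the CON_P libraries 39.7%, 51.0%, 26.8% and 59.2%. The groups did not overlap, but the gap between S31 and S30 was small beside the range of CON_P. The means were 63.2% ± 2.99 (SD, n = 4) in MET_P, beside 44.2% ± 14.1 (SD, n = 4) in CON_P. The MET_noP libraries had 54.1%, 61.1%, 35.1% and 53.5%, and the CON_noP libraries had 49.9%, 38.8%, 57.3% and 37.1%. Their ranges overlapped almost fully.

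In GPR62, the MET_P libraries had 51.0%, 49.7%, 38.9% and 43.9%, and the CON_P libraries 34.1%, 33.0%, 25.9% and 37.9%. The groups did not overlap, with S27 of MET_P a point above S30 of CON_P. The means were 45.9% ± 5.61 (SD, n = 4) in MET_P, beside 32.7% ± 5.01 (SD, n = 4) in CON_P. The MET_noP libraries had 47.8%, 43.4%, 39.0% and 46.2%, and the CON_noP libraries had 47.5%, 24.4%, 44.0% and 34.9%. The MET_noP mean of 44.1% ± 3.86 (SD, n = 4) lay 1.77 points below that of MET_P, and the CON_noP mean was 37.7% ± 10.3 (SD, n = 4).

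**Figure D1:**
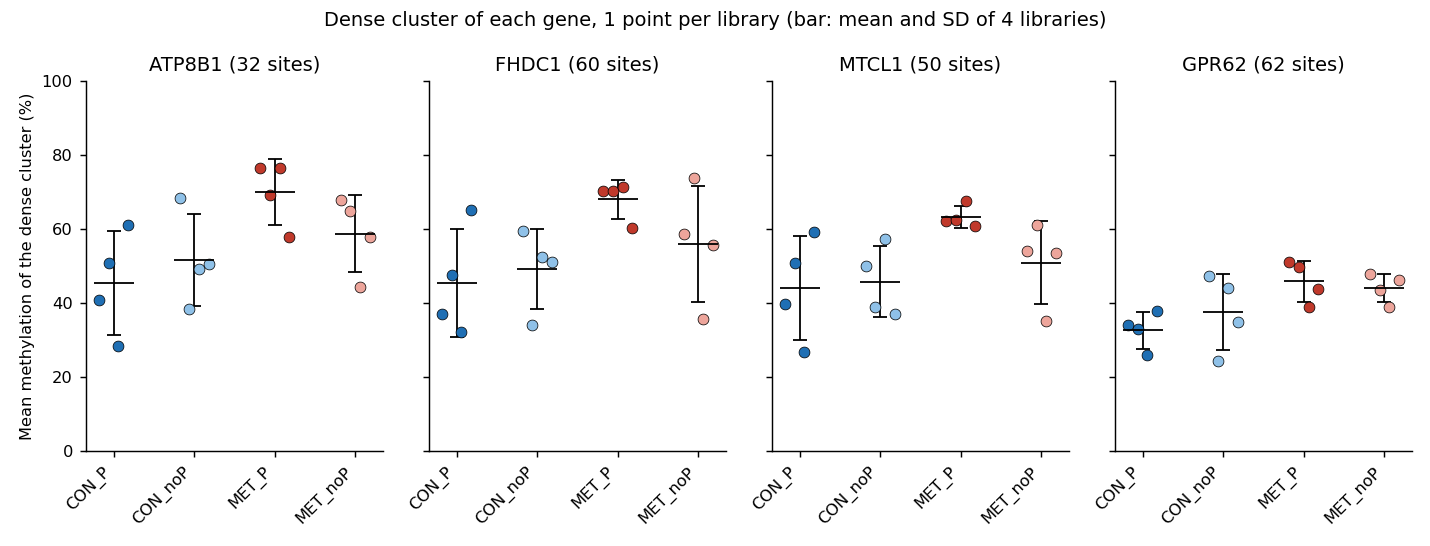
Mean methylation (%) of the dense cluster of each gene in each library, by group, with the mean and SD of 4 libraries as black bars. The highest library was of MET_P in 3 of the 4 panels and of MET_noP in FHDC1, and CON_P spans from 28.5% to 61.2% in ATP8B1 and from 25.9% to 37.9% in GPR62.

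Over all sites of a gene, MET_P exceeded CON_P by 23.1 percentage points in ATP8B1, 21.1 in FHDC1, 13.3 in MTCL1 and 13.1 in GPR62. These 4 gene means ranked 1, 2, 38 and 41 of 5716 genes with at least 5 sites. The gene after FHDC1 in this order was FAM131A with 20.7 points. MTCL1 stood between DGKK with 13.4 and JPT2 with 13.2, and GPR62 between LRRC61 with 13.2 and RNF39 with 13.1. Among the 1005 genes with at least 30 sites, the ranks were 1, 2, 6 and 7. All 4 MET_P libraries lay above all CON_P libraries in the gene means of MTCL1 and GPR62, as in 3.05% of all genes tested.

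At single sites, the mean was higher in MET_P at 217 of the 236 sites, beside 53.6% of all sites in the table. All libraries of MET_P lay above all libraries of CON_P at 48 sites (20.3%), beside 1.92% of all sites, and at 0 sites below them, beside 1.17%. Since these values chose the genes, nothing is read from the counts. The 48 sites were 10 in ATP8B1, 8 in FHDC1, 12 in MTCL1 and 18 in GPR62, and every one lay in a dense cluster. Their positions are given as a description only, since neighbouring sites share reads and are not independent. In GPR62, 17 of the 18 lay within 170 bases at chr22:48978067-48978236, a span with 22 measured sites. In MTCL1, 10 of the 12 lay within 127 bases at chr24:41209107-41209233, among 20 sites. In ATP8B1, all 10 lay within 134 bases, among 24 sites. In FHDC1 the longest run was 5 sites in the last 38 bases of the cluster, among 9 sites.

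The site with the largest difference was in FHDC1, at position 4673810 of chromosome 17, with 74.1% ± 9.18 (SD, n = 4) in MET_P, beside 24.7% ± 9.59 (SD, n = 4) in CON_P. In ATP8B1 it was position 56869275 of chromosome 24, with 63.4% against 28.6%. In MTCL1 it was position 41209171 of chromosome 24, with 65.5% against 34.3%, and in GPR62 position 48978180 of chromosome 22, with 55.5% against 21.6%. The smallest differences of ATP8B1, FHDC1 and MTCL1 fell outside the dense clusters. They were -4.99 points at position 56975608 in ATP8B1, -3.44 at position 4699274 in FHDC1 and -6.31 at position 41162913 in MTCL1. In GPR62, the smallest difference was -3.88 points at position 48978299.

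Along the dense clusters, MET_P and CON_P were set side by side in windows of 100 bases. In ATP8B1, MET_P exceeded CON_P by 25.98 points over the first 100 bases and by 22.5 points over the next 100. In FHDC1, the difference was 18.7 to 26.6 points in every window of 100 bases that held sites. The clusters of the other two genes were less even. The first 100 bases of the MTCL1 cluster were highly methylated in every group, from 79.3% in CON_P to 88.1% in MET_P. Further in, the MTCL1 level was as low as 34.6% in CON_P and 50.0% in MET_P in the window from 300 bases, and the difference was 24.6 points in the window from 400 bases. In GPR62, the difference was 24.8 points in the window from 500 bases and 7.48 in the last window, from 800 bases on.

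**Figure D2:**
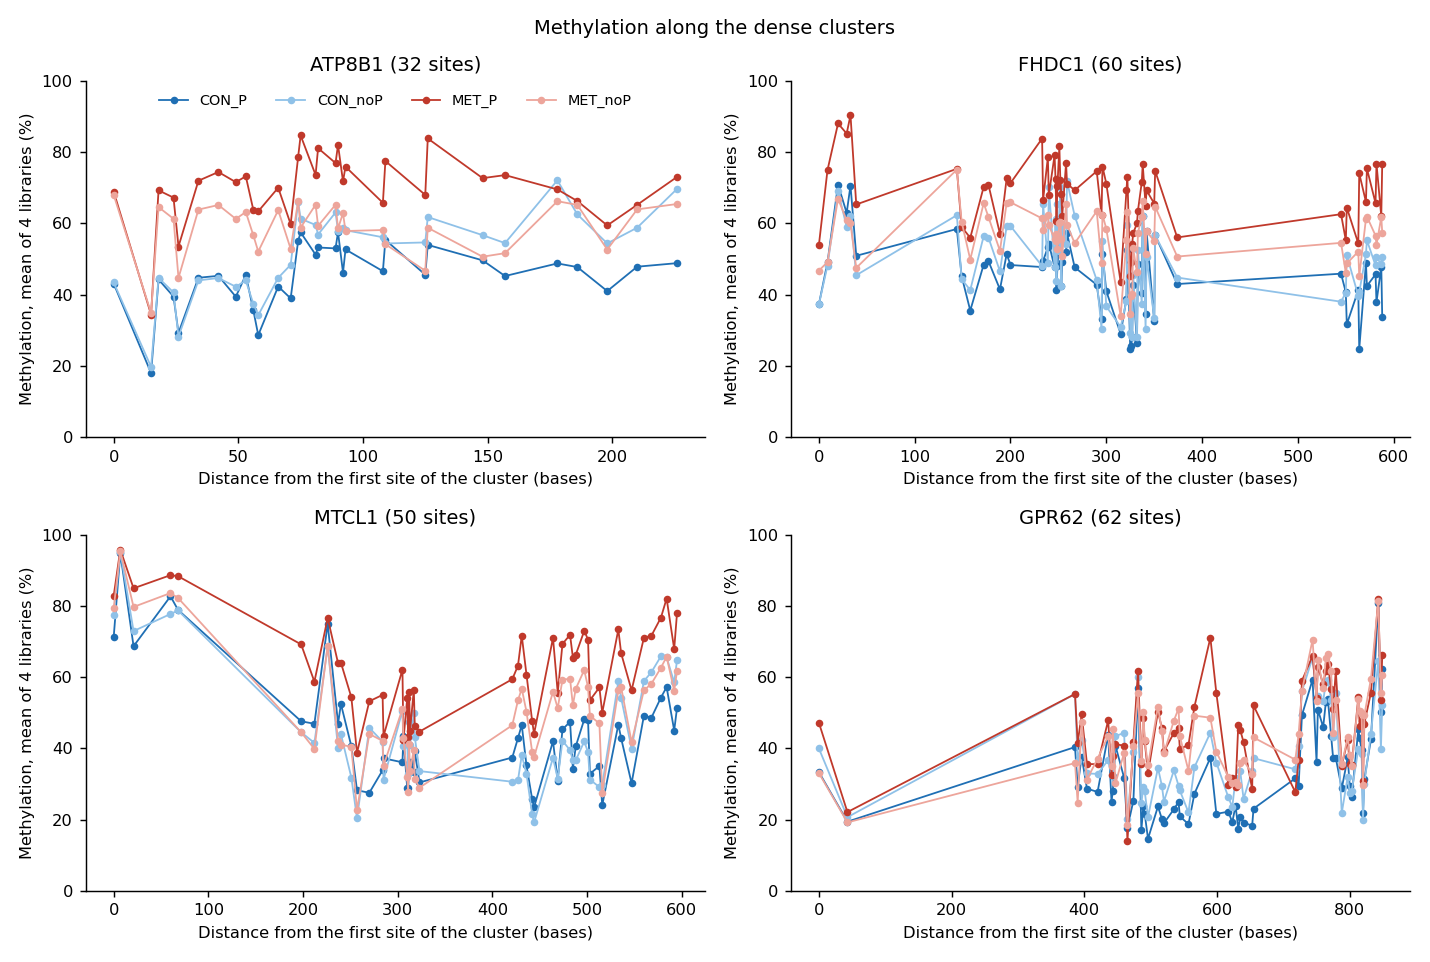
Methylation (%) at each site of the dense clusters, as the mean of 4 libraries per group, against the distance in bases from the first site of the cluster. The MET_P line is above the CON_P line at 201 of the 204 sites.

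Outside the dense clusters, 32 sites remained, and MET_P had the higher mean at 16 of them. The 2 other ATP8B1 sites lay more than 100 kb from the cluster and had low methylation, with 11.96% ± 4.69 (SD, n = 4) in CON_P, beside 9.52% ± 1.52 (SD, n = 4) in MET_P. The 5 other FHDC1 sites were highly methylated, with 83.7% ± 2.74 (SD, n = 4) in CON_P, beside 87.4% ± 4.28 (SD, n = 4) in MET_P. The 25 other MTCL1 sites averaged 80.1% ± 2.26 (SD, n = 4) in CON_P, beside 81.8% ± 0.437 (SD, n = 4) in MET_P. They included a cluster of 7 sites at chr24:41162891-41162976 with group means of 92.1% to 94.9%, and one of 5 sites at chr24:41242220-41242265 with 96.5% to 97.8%. A pair of MTCL1 sites at chr24:41214400-41214444 was intermediate, like the dense cluster, with 55.0% in CON_noP and 58.3% in CON_P, beside 70.3% in MET_noP and 71.6% in MET_P.

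**Figure D3:**
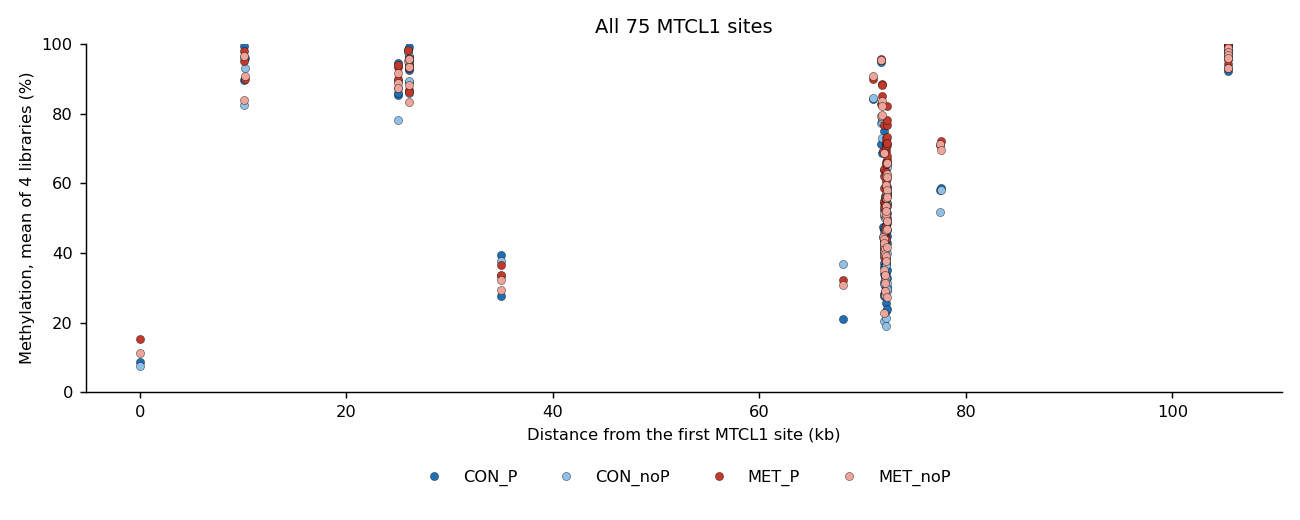
Methylation (%) at all 75 MTCL1 sites, as the mean of 4 libraries per group, against the distance in kb from the first site. Most of the 25 sites outside the dense cluster lie near the top of the axis, and the 50 sites of the dense cluster span 19.2% to 95.8%.

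Sites within 10000 bases of the members that the table does not assign to these genes were also examined. Near ATP8B1, 3 sites without a gene name had group means of 2.58% to 11.5%. They lay 214 to 822 bases from the outlying ATP8B1 site at position 56976365, far from the dense cluster. Near GPR62, 10 sites of PCBP4, which encodes an RNA-binding protein, had group means of 80.5% to 99.04%. Near MTCL1, 1 unnamed site had group means of 16.7% to 27.4%, and none lay near FHDC1. The MTCL1 neighbour lay 2071 bases from the outlying site at position 41136883. None of these sites was thus within 10000 bases of the dense cluster of ATP8B1 or MTCL1. In the test of MET_noP against CON_noP described next, the lowest adjusted p of these sites was 0.944 (limma, Benjamini-Hochberg).

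The comparison of MET_noP with CON_noP asks how the diet related to methylation in cows that resulted in no pregnancy, and it used none of the libraries that chose the genes. All 4 dense clusters had the higher mean in MET_noP, by 7.08 points in ATP8B1, 6.72 in FHDC1, 5.14 in MTCL1 and 6.41 in GPR62. The groups overlapped in every gene. None of the differences exceeded the SD within groups taken over both noP groups, which was 11.5, 13.4, 10.4 and 7.78 points in the same order. In GPR62, the difference exceeded the SD of MET_noP alone, 3.86 points. Two-sided exact permutation tests on the library means of the clusters gave p = 0.429 for ATP8B1, 0.457 for FHDC1, 0.514 for MTCL1 and 0.314 for GPR62, where the smallest p that 4 against 4 libraries allow is 0.0286. The SE of the difference was 8.13 points for ATP8B1, 9.50 for FHDC1, 7.33 for MTCL1 and 5.50 for GPR62.

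Fitted with limma over all 8695 genes with at least 2 sites, the gene means differed by 0.37 ± 0.39 (SE) on the log2 M scale in ATP8B1, 0.40 ± 0.46 in FHDC1, 0.22 ± 0.27 in MTCL1 and 0.40 ± 0.31 in GPR62. M stands for the ratio of the methylated to the unmethylated percentage on a log2 scale, with 1 point added to each. The Benjamini-Hochberg adjusted p was 0.916, 0.926, 0.933 and 0.869 in the same order. Over all genes, 0 passed an adjusted p under 0.05 and 557 (6.41%) had an unadjusted p under 0.05. In percentage points, the gene means differed by 6.46, 6.47, 3.78 and 6.41. Ranked from the highest among the 5716 genes with at least 5 sites, these were 308, 305, 850 and 317, and 63.1% of all genes tested had the higher mean in MET_noP. These genes include many of low or high level. Of 68 clusters with at least 30 sites and a level of 30% to 70%, 20 had a larger difference than the ATP8B1 dense cluster. For FHDC1 this was 21, for MTCL1 32 and for GPR62 24. All sites with a mean of 30% to 70% averaged 49.5% in MET_noP and 46.9% in CON_noP.

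In limma, 0 of the 236 sites passed the adjusted threshold of 0.05 (lowest adjusted p = 0.906), and over all 199395 sites 0 passed as well. The paper, by logistic regression, lists MTCL1 among the genes hypermethylated at 2 or more sites in MET_noP compared to CON_noP. It also lists ATP8B1 among the genes with increased methylation under RPM in both outcomes. That test could not be repeated on percentages. At an unadjusted p under 0.05, there were 14 member sites, all higher in MET_noP, of which 11 were in MTCL1 and 3 in GPR62. This count and its direction rested on single libraries. It was 1 site, lower in MET_noP, without the CON_noP library S28, and 2 sites, both lower, without S16. Without the MET_noP library S25 it was 35, of which 33 were higher. Of all sites, 5.13% had such a p in either direction and 3.36% had it with the higher mean in MET_noP. The mean was higher in MET_noP at 170 of the 236 sites (72.0%), beside 57.3% of all sites, and at 151 of the 204 sites of the dense clusters. By gene, this was 22 of 32 dense-cluster sites in ATP8B1, 49 of 60 in FHDC1, 32 of 50 in MTCL1 and 48 of 62 in GPR62. Sites of a cluster share reads and are not independent, so these counts describe the clusters and are not a test. Without the CON_noP library S16, the count was 115 of 204, and without the MET_noP library S25 it was 171.

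The MET_noP libraries all lay above the CON_noP libraries at 4 of the 236 sites (1.69%), beside 1.85% of all sites. They lay below them at 0 sites, beside 0.903%. The share of 1.69% is close to that of all sites, and nothing is read from it. All of these 4 were in GPR62, among them positions 48978070, 48978098 and 48978123. The site with the largest difference in GPR62 was one of them, at position 48978123, with 51.2% ± 8.06 (SD, n = 4) in MET_noP and 29.6% ± 11.5 (SD, n = 4) in CON_noP (limma, adjusted p = 0.906). The largest differences in the other genes were 24.6 points at position 56869217 in ATP8B1, 24.3 at position 4673583 in FHDC1 and 22.4 at position 41209113 in MTCL1. The smallest were -7.96 at position 56869342 in ATP8B1, -12.5 at position 4673495 in FHDC1, -11.8 at position 41209004 in MTCL1 and -19.4 at position 48977967 in GPR62. For all 8 of these sites the adjusted p in limma was 0.906 or more.

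Within 2 of the clusters, the difference between MET_noP and CON_noP was uneven along the sites. The stretches described here were chosen after their values were seen and were not tested. In ATP8B1, the first 12 sites, within 67 bases at chr24:56869217-56869283, had a difference of 15.1 to 24.6 points each and 19.3 on average. At the 20 sites that follow within 156 bases, it was -7.96 to 5.68 points and -0.24 on average. Over the first stretch, the CON_noP libraries S12, S16, S24 and S28 had 68.3%, 26.8%, 31.3% and 29.7%, and over the second 68.6%, 45.3%, 60.2% and 63.1%. The MET_noP libraries S13, S17, S25 and S29 had 67.3%, 61.0%, 43.3% and 61.7% and then 68.1%, 67.4%, 44.99% and 55.8%. The CON_noP libraries other than S12 were thus low in the first stretch, whereas S12 was above every MET_noP library in both.

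In MTCL1, 13 sites within 77 bases at chr24:41209107-41209183 differed by 15.5 to 22.4 points each. The CON_noP libraries had 34.5%, 28.9%, 45.6% and 26.1% there, and the MET_noP libraries 59.8%, 56.8%, 37.2% and 55.6%. Only S25 of MET_noP lay within the range of CON_noP. At the other 37 sites of this cluster it was -11.8 to 18.3 points and 0.42 on average. The sites that follow the stretch directly, at 41209187, 41209189 and 41209199, still differed by 18.3, 17.9 and 17.9 points. They are counted among the other 37 sites, although they resemble the stretch. On the log2 M scale, the difference was 1.12 at 41209199 and -0.19 at the next measured site, 41209202. In the P groups the difference was also larger in these stretches, with less contrast to the other sites. MET_P was above CON_P by 27.2 and 23.2 points in the first and second stretch of ATP8B1. In the stretch of MTCL1 and the rest of its cluster, it was above by 24.6 and 17.1 points. The MET_P and CON_P libraries did not overlap in the first ATP8B1 stretch and in the MTCL1 stretch, and overlapped in the other parts.

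**Figure D4:**
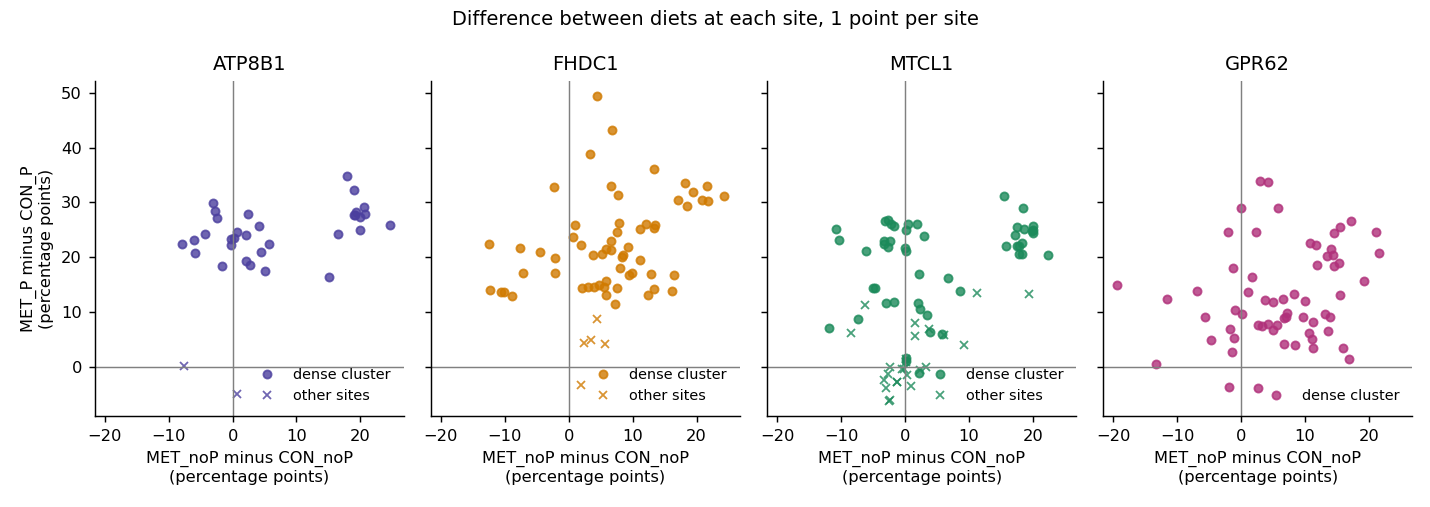
Difference between diets in percentage points at each site, with MET_noP minus CON_noP on the horizontal and MET_P minus CON_P on the vertical axis. In ATP8B1 and MTCL1 the dense-cluster sites fall into a group near 0 and a group near 20 points on the horizontal axis, and the 32 sites outside the dense clusters, drawn as crosses, lie at or below 13.4 points on the vertical one.

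Adjacent positions 1 base apart are the cytosines of the same CpG on opposite strands, read from different strands of the DNA. Taking each position once, there were 6 such pairs in the dense cluster of ATP8B1, 20 in FHDC1, 5 in MTCL1 and none in GPR62. In FHDC1, the mean over the first positions and the mean over the second positions correlated over the 16 libraries with r = 0.89, a description without a test. In the P groups, both gave a like difference, 25.1 points for the first and 22.7 for the second positions. In the noP groups the difference between MET_noP and CON_noP was 13.3 points at the first positions, which were higher at 20 of 20 pairs. At the second positions it was -0.17 points, and these were higher at 12 of 20 pairs. At the first positions, CON_noP had 41.1% ± 13.5 (SD, n = 4) and MET_noP 54.3% ± 17.9 (SD, n = 4). At the second positions, they had 56.7% ± 10.5 (SD, n = 4) and 56.5% ± 17.8 (SD, n = 4). The first minus the second positions gave -22.2 to -9.13 points in the 4 CON_noP libraries. In the MET_noP libraries it gave 2.41 points in S13, -4.80 in S17, -4.33 in S25 and -1.95 in S29. In the noP groups, the first and second positions gave 1.07 and -0.47 points in ATP8B1, and -5.29 and -3.64 points in MTCL1, over 6 and 5 pairs. In the P groups they gave 22.9 and 25.8 points in ATP8B1, but 23.3 and 7.02 points in MTCL1.

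The comparison of the later pregnancy outcomes within each diet shares libraries with the contrast that chose the genes, so it is also given without a test. With the control diet, CON_P had the lower mean in all 4 dense clusters. CON_P minus CON_noP was -6.31 points in ATP8B1, -3.80 in FHDC1, -1.62 in MTCL1 and -4.96 in GPR62, and the groups overlapped in every gene. With RPM, MET_P was above MET_noP by 11.3 points in ATP8B1, 12.1 in FHDC1, 12.3 in MTCL1 and 1.77 in GPR62, again with overlap.

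The libraries of a group differed widely in these clusters. In the noP groups, the SD between libraries within a group was 11.5 points for ATP8B1, 13.4 for FHDC1, 10.4 for MTCL1 and 7.78 for GPR62. Of 188 clusters with at least 30 sites in the table, 68 had a like level of 30% to 70% in the noP libraries, and their median SD was 6.67 points. Only 6 of the 68 had a larger SD than ATP8B1, 2 than FHDC1 and 9 than MTCL1, while 23 had a larger SD than GPR62. At single FHDC1 sites of the dense cluster, the median SD was 16.6 points in the CON_P libraries and 13.9 in CON_noP, beside 10.4 in MET_P and 16.8 in MET_noP. In MTCL1, the SD of the cluster mean was 2.99 points in MET_P, beside 9.55 to 14.1 points in the other groups. In GPR62 it was 5.61 points in MET_P, beside 5.01 for CON_P, 10.3 for CON_noP and 3.86 for MET_noP. Over all sites, the median SD of a site was also lowest in MET_P, with 4.54 points, beside 5.11 to 5.85 in the other groups. The paper reports the most raw reads and the most mapped CpGs in MET_P as well, but the most bases after adapter cleaning in MET_noP. The part of depth in these spreads was not tested.

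Some libraries kept their place within the group in all 4 genes, and others did not. In CON_P, S26 was the lowest of its group in 4 of 4 dense clusters and S30 the highest in 4 of 4. In MET_noP, S25 was the lowest in 4 of 4, although its mean over all sites, 64.4%, was the highest of its group. In CON_noP, S16 was the lowest in 3 clusters and S12 the highest in 3, and in MET_P, S31 was the lowest in 3. In the same group, S27 was the highest in 2 clusters but the lowest in GPR62, with 38.9%. The library S17, which had the highest FHDC1 value, was below the mean of its group in GPR62.

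Over the 16 libraries, the dense clusters of ATP8B1 and FHDC1 correlated with Pearson's r = 0.93 (Spearman's rho = 0.89), and those of FHDC1 and MTCL1 with r = 0.91 (rho = 0.91). For ATP8B1 and MTCL1, r was 0.86 (rho = 0.81), and for ATP8B1 and GPR62 it was 0.80 (rho = 0.74). GPR62 followed less closely, with r = 0.74 (rho = 0.62) for FHDC1 and 0.70 (rho = 0.58) for MTCL1. These values are a description without a p, since the genes were chosen for a like difference between groups, and all regions were read from the same libraries. After the mean of its group was subtracted from each library, r was 0.88 for ATP8B1 and FHDC1, 0.85 for FHDC1 and MTCL1, 0.77 for ATP8B1 and MTCL1, and 0.58 to 0.68 for the pairs with GPR62. Without S16, S25 and S26, the lowest libraries in FHDC1 and a set left out after the data were seen, it was 0.76, 0.71 and 0.49 for these pairs and 0.22 to 0.38 for those with GPR62. With the mean over all sites, the clusters correlated with r = 0.28 for ATP8B1, 0.08 for FHDC1, 0.22 for MTCL1 and 0.49 for GPR62.

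**Figure D5:**
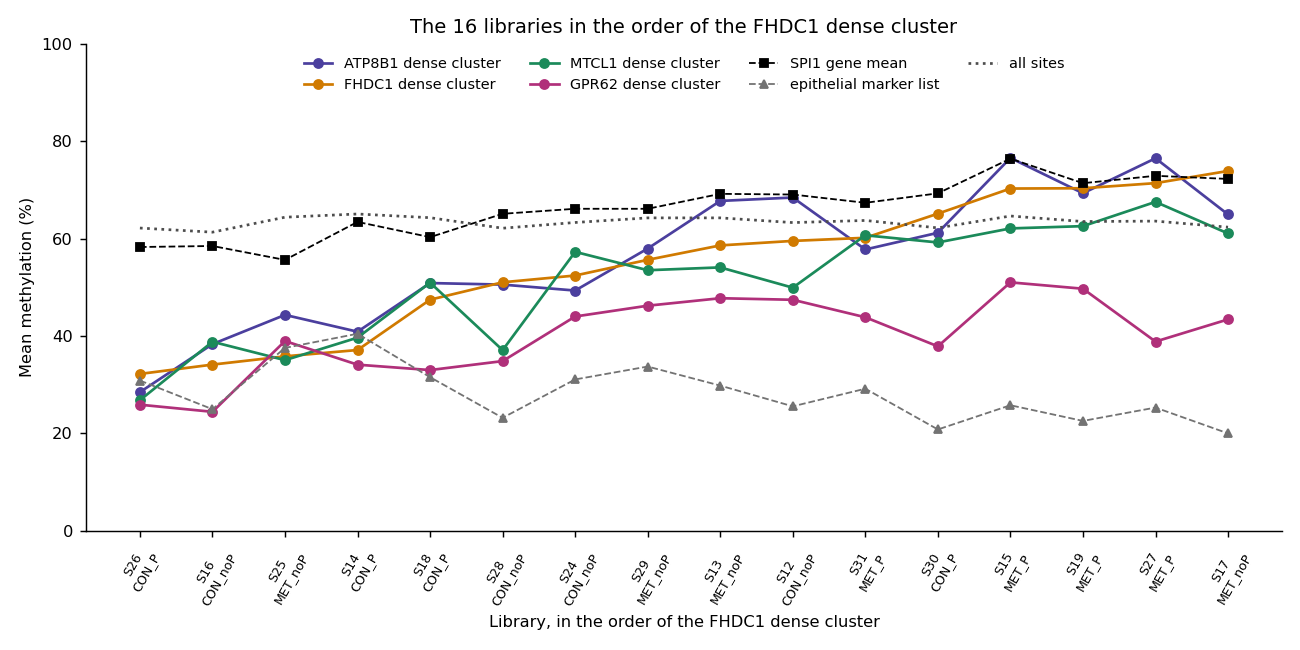
Mean methylation (%) of the dense clusters, of SPI1, of the epithelial marker list and of all sites in the 16 libraries, in the order of the FHDC1 dense cluster. ATP8B1 and MTCL1 are mostly higher toward the right, GPR62 less so (43.4% in S17 and 38.9% in S27), the mean over all sites stays between 61.3% and 65.1%, and the epithelial list is lower in the libraries at the right.

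Sites in marker genes of the cell types that a cytobrush can collect were set beside these values. Of 24 leukocyte genes 17 had sites, of 14 epithelial genes 11, and of 10 stromal genes 6. Over 215 leukocyte sites the group means were 52.7% in CON_P and 52.4% in CON_noP, beside 54.2% in MET_P and 52.1% in MET_noP. Over 98 epithelial sites they were 30.9%, 26.2%, 25.7% and 30.3%, and over 32 stromal sites 52.4%, 54.0%, 54.3% and 54.6%. Over the 16 libraries, the epithelial list correlated with r = -0.50 with the ATP8B1 cluster, -0.65 with FHDC1, -0.46 with MTCL1 and -0.16 with GPR62. The leukocyte list gave r = 0.15, -0.07, 0.13 and 0.23 in the same order.

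Of the marker genes with at least 5 sites, all 5 epithelial genes (CLDN7, GRHL2, ELF3, MUC1 and OVOL1) had a negative r with the FHDC1 cluster, from -0.68 to -0.45. The 10 leukocyte genes were split, with 7 positive and 3 negative. SPI1, which encodes the transcription factor PU.1 of myeloid and B cells, was the highest of them. Its 29 sites correlated with r = 0.94 with FHDC1, 0.90 with ATP8B1, 0.84 with MTCL1 and 0.74 with GPR62. ITGB2, the beta chain of the leukocyte integrins, was the lowest, with r = -0.71 with FHDC1. The SPI1 mean was 62.8% ± 4.81 (SD, n = 4) in CON_P and 64.7% ± 4.46 in CON_noP, beside 72.0% ± 3.76 in MET_P and 65.8% ± 7.23 in MET_noP. SPI1 and ITGB2 were singled out after their values were seen, and the part of the cell types in the differences between groups was not tested.

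Among the 5715 other genes with at least 5 sites, the genes whose means were most like those of each member over the 16 libraries were named by rank. For ATP8B1 these were IFT140 (r = 0.95), IFFO1 (0.94) and FAM131A (0.93), and for FHDC1 they were IFFO1 (0.97), EPS8L2 (0.95) and FAM131A (0.95). For MTCL1 they were NEURL1B (0.91), RFX1 (0.91) and DLX4 (0.90), and for GPR62 MT3 (0.91), EPOP (0.89) and TSPAN9 (0.89). The median r over all these genes was 0.13 for ATP8B1, 0.08 for FHDC1, 0.12 for MTCL1 and 0.17 for GPR62. Among each other, the members ranked as follows, which is a description since they were chosen for a like difference between groups. In likeness to ATP8B1, FHDC1 ranked 4, MTCL1 43 and GPR62 117. In likeness to MTCL1, FHDC1 ranked 5, ATP8B1 13 and GPR62 218. In likeness to FHDC1, ATP8B1 ranked 7, MTCL1 22 and GPR62 180. The ranks in likeness to GPR62 were 37 for ATP8B1, 102 for FHDC1 and 205 for MTCL1.

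Relatives of the members were examined in the noP groups, where 0 genes of any list passed the threshold and 0 had an unadjusted p under 0.05 (limma). Of 15 flippase genes, including the beta subunits that flippases need to leave the endoplasmic reticulum, 11 had at least 2 sites. Their median difference between MET_noP and CON_noP was 0.111 points, beside 0.634 over all genes. ATP10D was at 54.0% in MET_noP and 66.4% in CON_noP over 3 sites (limma, adjusted p = 0.839), and ATP9B at 91.2% and 88.8% over 60 sites (adjusted p = 0.795, limma). Of 14 formins 9 were measured, with a median of -1.50 points. Among them, FHOD1 was at 24.9% in MET_noP and 29.1% in CON_noP, and FMN2 at 21.7% and 18.4%. Of 22 genes for microtubule-binding proteins and their kinases, 14 were measured, with a median of 1.12 points. MAP4 was at 63.9% in MET_noP and 55.0% in CON_noP over 3 sites and MAPT, which encodes tau, at 69.2% and 65.2%. Of 8 receptors related to GPR62, 2 were measured. The melatonin receptor gene MTNR1B was at 11.7% in MET_noP and 9.49% in CON_noP, and GPR50 at 29.3% and 29.5%.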

How the data were processed

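The authors digested DNA with MspI, treated it with bisulfite, and used Trim Galore for trimming, Bismark for alignment (ARS-UCD1.2) and SeqMonk to quantify single positions that reached a minimum read count, and left out positions with zero or invalid values. The values deposited by the authors are percent methylation per position and library, without read counts or normalization between libraries, and columns were assigned to groups by the group name above them. The authors tested counts by logistic regression, which percentages do not allow. Percentages were here converted into M values, log2((percent + 1)/(100 - percent + 1)), and tested with limma 3.58.1 in R 4.3.3 (no trend) on the 8 libraries of MET_noP and CON_noP. Adjustment (Benjamini-Hochberg, threshold 0.05) ran over all 199395 sites, or over all 8695 genes with at least 2 sites and a single identifier. Library means of clusters (gap of at most 500 bases, at least 5 sites) entered two-sided exact permutation tests with 35 splits (scipy 1.17.1, pandas 2.3.3 and numpy 2.4.6 in Python 3.11.15), and figures were drawn with matplotlib 3.10.9. The tests were checked on simulated data.

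The members and lists were chosen with earlier results of these data known. MET_P against CON_P was used to choose the genes and, like the contrasts that share its libraries, was not tested. Named were the 4 members, their clusters, the sites with the largest and smallest difference per gene and contrast, the 3 genes most like each member, and the 2 genes with the largest difference in either direction of each list of relatives. Libraries count as replicates, and p-values measure the spread between libraries only. The alternatives were other transformations, offsets, gaps and site sets, medians, strand-merged positions, centred libraries, all 16 libraries in 1 model, blocks of library sets and each library left out. No sequence is printed, since no genome was used here.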

Additional observations from a re-analysis of the deposited data

Results flagged for a closer look

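In MET_P, library S31 stood apart from the other three in FHDC1. Its gene mean was 62.17%, beside 71.3% in the next library and 72.7% in the highest, and its dense-cluster mean was 60.19%, beside 70.3% and 71.4%. By Dixon's criterion for 4 values, the gap of S31 to its neighbour took up more of the group's range than the 95% critical value allows. Of 40 groups of libraries examined in this way, 2 stood out, both from these FHDC1 sites, and chance alone gives about 1 in 20. Without S31, the FHDC1 gene mean of MET_P minus CON_P was 23.6 points in place of 21.1. The cause was not tested.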

How the results depend on the processing

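Of 242 alternative values, 238 kept their direction and their side of the threshold, stayed within the spread between libraries or, for counts, within a set ratio of the main count. The 238 include the count of dense-cluster sites higher in MET_noP, which was 115 to 171 without 1 library, beside 151. The exceptions were mostly small differences in the highly methylated MTCL1 clusters. For the cluster of 7 sites, MET_noP minus CON_noP changed sign to 0.425 points with a gap of 1000 bases, which joins further sites to it. For the cluster of 5 sites it changed sign to 1.23 points with the median over sites and to 0.143 points without the CON_noP library S12 (lowest -1.17 without the MET_noP library S17), where no exact p was under 0.2. The MTCL1 gene mean of MET_P minus CON_P was 22.9 points with the median in place of the mean over sites, since the median falls among the dense-cluster sites. With 1 library left out, that difference was 17.9 to 28.01 points in ATP8B1, 16.999 to 27.1 in FHDC1, 9.20 to 16.6 in MTCL1 and 10.9 to 15.5 in GPR62. The dense-cluster difference between MET_noP and CON_noP then ranged from 2.64 to 12.7 points in ATP8B1, 0.748 to 13.4 in FHDC1, 1.77 to 10.4 in MTCL1 and 1.99 to 9.66 in GPR62, with exact permutation p of 0.143 or more. With 1 library left out, the smallest p that 3 against 4 libraries allow is 0.0286. No member site and no gene of the lists passed the threshold under any alternative. An offset of 0.1 points called 225 sites and 2 genes elsewhere in the table (limma). The number of dense-cluster sites higher in MET_P was 198 to 202 without 1 library, and 171 of 173 with strands merged. The block of library sets, each holding 1 library per group, changed no call and gave adjusted p (limma) of 0.843 to 0.939 for the gene means. For the labels' replicate numbers, no paired analysis was possible because the columns carry only library numbers, and these are not known to mark shared cows or batches. Depth per site is unknown, so no alternative on coverage was run.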

Other observations

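The 16 libraries carry numbers in 4 consecutive runs, 12 to 15, 16 to 19, 24 to 27 and 28 to 31, with 1 library of each group in each run. Within these runs, MET_P minus CON_P in the ATP8B1 dense cluster was 35.7, 18.4, 48.0 and -3.43 points, and in FHDC1 33.2, 22.9, 39.2 and -4.96 points. In MTCL1 it was 22.4, 11.6, 40.7 and 1.47 points, and in GPR62 16.9, 16.7, 12.97 and 5.97 points. In the last run, with S30 and S31, the difference was thus the lowest in each gene. MET_noP minus CON_noP in ATP8B1 was -0.69, 26.6, -5.00 and 7.41 points, in FHDC1 -0.92, 39.8, -16.6 and 4.61 points in MTCL1 4.17, 22.2, -22.2 and 16.4 points, and in GPR62 0.32, 18.99, -5.04 and 11.4 points. In the run from 24 to 27, the RPM library was thus the higher one of the P groups and the lower one of the noP groups in each of these genes. What the runs stand for is not given in the sources used here.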
